A study of Mus musculus with 15 samples.

Results

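The 9 co-inhibitory receptor genes of T cells followed here, Ctla4, Pdcd1, Lag3, Tigit, Havcr2, Btla, Cd160, Cd96 and Cd200, were read in RNA sequencing libraries of sorted mouse T cells. They were chosen by symbol as a family, with earlier results of these data known. Cd200 encodes a ligand of an inhibitory receptor, and is counted among the 9 receptor genes throughout. All 9 of the 9 symbols stood in the table of 17594 genes, and all 9 passed the filter on low values that left 11314 genes for testing. Regulatory T cells (Treg), the suppressive lineage of CD4 T cells defined by Foxp3, and CD4 T cells of the conventional kind (Tconv) were sorted from the spleen of C57BL/6 mice. The knockout (KO) animals came from a cross of a conditional Hpgd allele with FOXP3-Cre-YFP, so that deletion depends on expression of Foxp3, and their Tconv are cells in which this driver should be silent. Hpgd encodes hydroxyprostaglandin dehydrogenase, which inactivates prostaglandin E2. Controls carry the label wild-type (WT), and the labels do not say whether they had the Cre driver. There were 4 Treg KO, 4 Treg WT, 4 Tconv KO and 3 Tconv WT libraries, with no treatment named.

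The receptors hold T cell responses in check in different ways. CTLA-4 takes CD80 and CD86 away from the activating receptor CD28, and PD-1, encoded by Pdcd1, recruits a tyrosine phosphatase to the T cell receptor when it meets PD-L1 or PD-L2. TIGIT and CD96 compete with the activating receptor CD226 for CD155, BTLA and CD160 bind HVEM, LAG-3 binds MHC class II, TIM-3 (Havcr2) binds galectin-9 among others, and CD200 is a surface ligand for the inhibitory receptor CD200R. Treg are known for constant high CTLA-4, while several of the others mark activated, follicular or exhausted T cells.

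Levels are normalized read counts, the authors' gene counts divided by a size factor for each library. Libraries held 2.64 to 4.71 M reads in Treg KO, 6.43 to 10 in Treg WT, 2.95 to 10.3 in Tconv KO and 6.6 to 11.1 in Tconv WT. Foxp3 lay between 3314 and 4590 in Treg KO and between 4006 and 4800 in Treg WT, against 18.9 to 69.5 in Tconv KO and 14.4 to 20.6 in Tconv WT, so the sort labels held. Hpgd itself had 0 reads in Treg KO and 1 read in Treg WT, and 0 in both Tconv groups; a count of 0 allows up to 0.193 reads per M in Treg KO, so these data do not check the deletion. Xist lay between 8644 and 19007 in the KO libraries and between 0 and 5.52 in the WT libraries, and the Y-linked Ddx3y was at 0 in all KO libraries and between 1154 and 1520 in the WT libraries. Genotype and sex therefore cannot be told apart. In the labels the sample numbers run from 574 to 581 for KO and from 483 to 490 for WT, so whatever differed between those 2 series of samples also goes with genotype. In bulk RNA, fewer cells of a type and less RNA per cell cannot be told apart. The labels do not say that libraries of a group came from separate animals, so p-values measure the spread between these samples. That spread was estimated for each gene over all groups together, and it was wider in KO than in WT for most genes. P-values of the WT comparison thus carry KO spread, and those of the KO comparison carry WT spread.

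Of the 9 genes, 4, Tigit, Btla, Cd200 and Cd96, lie within 2.47 Mb of each other on chromosome 16 (GRCm38, 43648867 to 46120251), a span that holds 33 genes of the table. Ctla4 and Pdcd1 lie on chromosome 1, Cd160 on chromosome 3, Lag3 on chromosome 6 and Havcr2 on chromosome 11. The 250 bases before the start of 3 genes are shown because these genes span the differences between the cell types: Ctla4 and Tigit passed as higher in Treg in both genotypes, and Btla was lower there without passing. They are from RefSeq (GRCm38.p6), 5′ to 3′ along the gene's own strand: Ctla4 at chr1:60908775-60909024 on the plus strand, Tigit at chr16:43664185-43664434 on the minus strand and Btla at chr16:45224087-45224336 on the plus strand. Capitals mark the core letters bound by the calcium-dependent factor NFAT, GGAAA, or TTTCC on the other strand.
Ctla4: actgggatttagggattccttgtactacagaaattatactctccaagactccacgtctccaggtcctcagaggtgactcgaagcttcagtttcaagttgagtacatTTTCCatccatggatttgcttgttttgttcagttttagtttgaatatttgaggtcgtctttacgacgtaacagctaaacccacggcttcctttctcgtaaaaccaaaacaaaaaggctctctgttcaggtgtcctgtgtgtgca
Tigit: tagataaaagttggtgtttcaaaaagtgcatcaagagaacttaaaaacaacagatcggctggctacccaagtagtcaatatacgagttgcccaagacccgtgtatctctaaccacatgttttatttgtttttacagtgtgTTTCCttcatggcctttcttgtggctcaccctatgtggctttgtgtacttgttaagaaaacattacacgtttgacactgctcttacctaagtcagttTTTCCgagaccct
Btla: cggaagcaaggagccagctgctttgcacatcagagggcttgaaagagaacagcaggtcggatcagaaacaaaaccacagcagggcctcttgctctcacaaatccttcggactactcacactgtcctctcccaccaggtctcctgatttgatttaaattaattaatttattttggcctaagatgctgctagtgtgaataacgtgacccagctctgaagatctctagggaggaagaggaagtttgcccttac
Ctla4 held 1 such match, Tigit held 2 and Btla held 0. Among the other members, of which Lag3 was not searched here, Pdcd1 held 2, Cd96 held 4, Havcr2 and Cd200 held 0, and Cd160 held 1 in 1 of its 2 promoters. The core is short and was present in 55.6% of all 27025 promoters of that length. The forkhead core TAAACA, found in 12% of all promoters, and the AP-1 letters TGAGTCA, found in 4.4%, were in none of the member promoters searched, on either strand.

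Per kilobase of exon, Ctla4 was the most abundant of the 9 transcripts in Treg, and Havcr2 the least in every group. The following levels are mean ± SD of normalized counts per kilobase, with n as above. In Treg KO, Ctla4 stood at 1398 ± 290.4 and Tigit at 1109 ± 480.5, ahead of Cd96 at 618.7 ± 122.2, Pdcd1 at 475.3 ± 144.9, Lag3 at 295.6 ± 200.1 and Btla at 245.9 ± 63.2. The ranges of 1 SD around the means of neighbours in that order overlapped, and Cd200 at 140.6 ± 33.6 came after a gap from Btla. In Treg WT the order was Ctla4 at 1003 ± 61.9, Tigit at 767.5 ± 101, Cd96 at 562 ± 39, Pdcd1 at 327 ± 42, Btla at 267.1 ± 34.8, Lag3 at 197.6 ± 39.3 and Cd200 at 122.5 ± 6.75. Of these neighbours, Pdcd1 and Btla, and Btla and Lag3, did not differ beyond their spread. In Tconv KO, Pdcd1 at 416.7 ± 270.5, Tigit at 396.3 ± 331.5, Cd96 at 382.5 ± 115.3, Btla at 304.8 ± 98.2, Lag3 at 281.4 ± 265.1 and Ctla4 at 194.2 ± 101.5 could not be ordered beyond their spread. In Tconv WT, Cd96 at 392.1 ± 28.6 and Btla at 344.5 ± 23.5 led, followed by Tigit at 258.1 ± 16, Pdcd1 at 237.4 ± 38.3, Lag3 at 203.7 ± 38.7, Ctla4 at 128.1 ± 17.8 and Cd200 at 78.1 ± 12.5. There Cd96 and Btla, Tigit and Pdcd1, and Pdcd1 and Lag3 overlapped within 1 SD. Ctla4 was thus first of the 9 in Treg WT and behind 5 of the others in Tconv WT. Cd160 stayed between 18.4 and 23.1 and Havcr2 between 3.04 and 7.52 in the 4 group means.

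**Figure D1:**
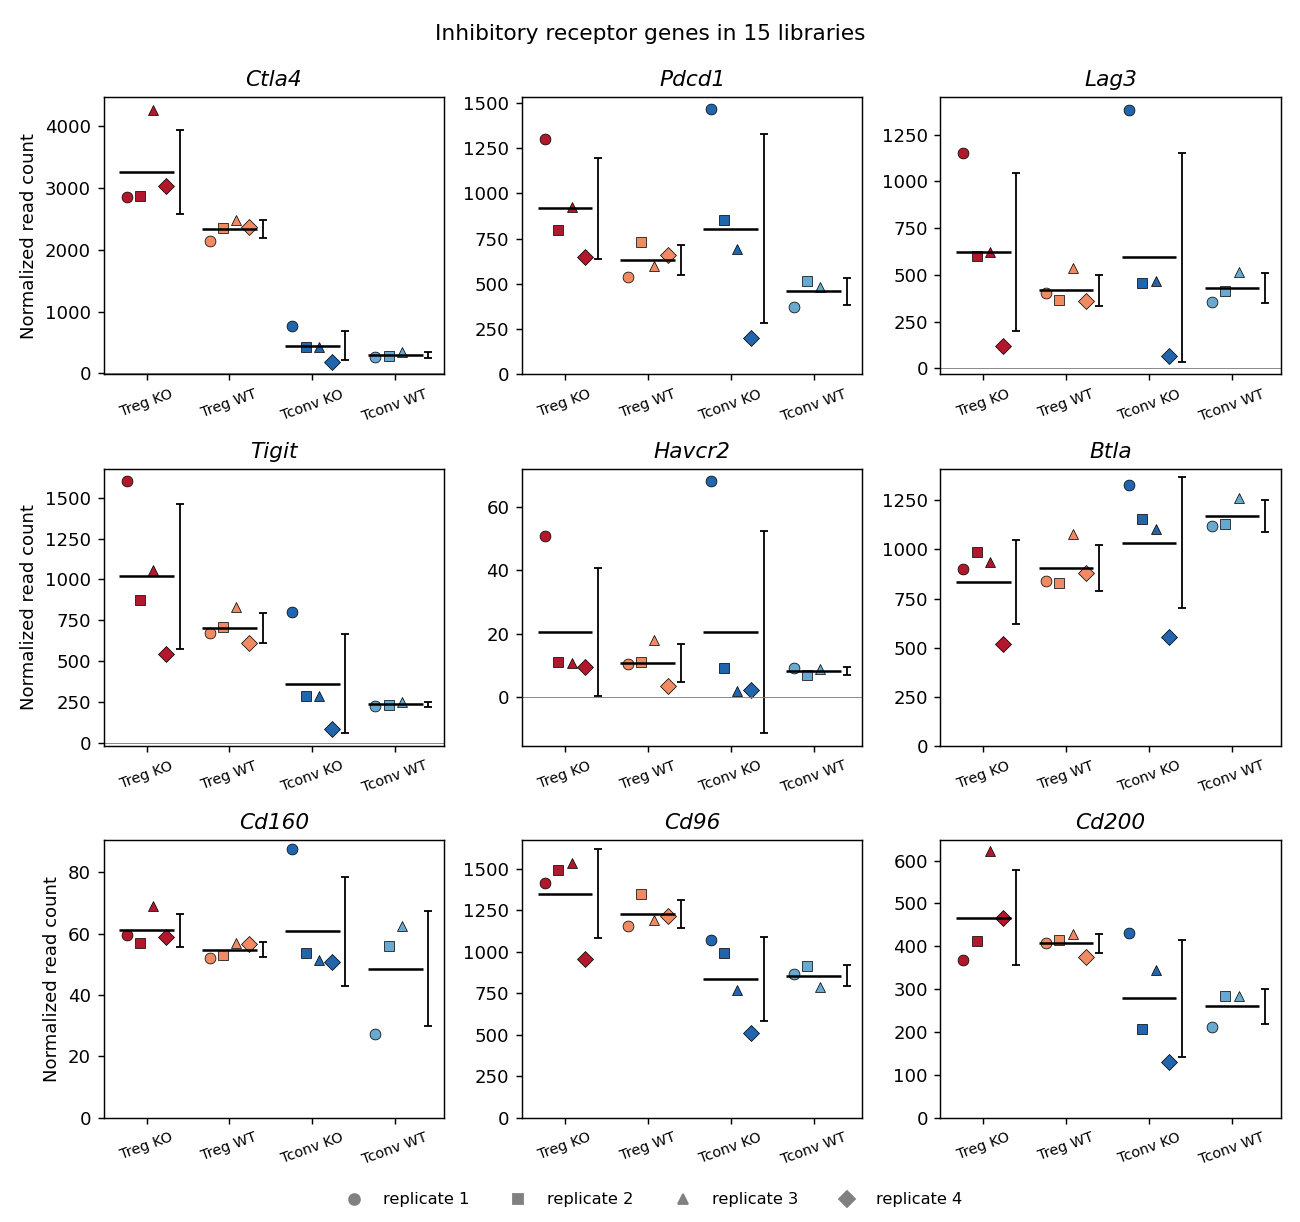
Normalized read count (vertical axes, linear) of the 9 receptor genes in each of 15 libraries, by group; points are libraries, horizontal lines group means and bars 1 SD. Ctla4 separates Treg from Tconv in both genotypes, and the KO groups are spread more widely than the WT groups for most genes.

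Between the cell types, Ctla4 and Tigit passed as higher in Treg than in Tconv in both genotypes. Cd96 and Cd200 passed as higher in KO, and in WT they were higher in Treg without passing (log2 fold changes of 0.52 and 0.66). In Treg WT against Tconv WT, 2 of the 9 genes passed as higher (limma, adjusted p under 0.05 over all genes) and 0 as lower, where 10.0% of all genes tested passed as higher and 8.06% as lower. The 5 genes Ctla4, Pdcd1, Tigit, Cd96 and Cd200, had every Treg WT library above every Tconv WT library, and Btla had every one below, where 20.6% of all genes were without overlap in the higher direction and 20.5% in the lower. In Treg KO against Tconv KO, 4 of 9 passed as higher and 0 as lower, against a background of 15.8% higher and 15.6% lower. Only Ctla4 was without overlap there, where 12.2% of all genes were so in the higher direction. The median log2 fold change of the 9 genes was 0.47 in WT and 0.72 in KO, beside -0.02 and -0.01 over all genes tested. The KO median was 0.21 in edgeR, 0.19 in DESeq2 and 0.44 with a pseudocount of 8, where that in WT was 0.47, 0.46 and 0.46, so the order of the genotypes turned. With 1 library left out it was 0.32 (without Treg KO replicate 1) to 0.97 (without Tconv KO replicate 1) in KO, with 0.38 without Tconv KO replicate 4 and 0.48 without Tconv KO replicate 3, and 0.33 to 0.56 in WT. Without Tconv KO replicate 4 the WT count was 4 of 9, and it was 1 without any single one of the libraries named for Tigit below. No member passed the test of a difference between the genotypes in this contrast (0 of 9 in limma, beside 0.15% of all genes, with 0 whose unadjusted p was under 0.05, and 0 in DESeq2 and edgeR alike).

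**Figure D2:**
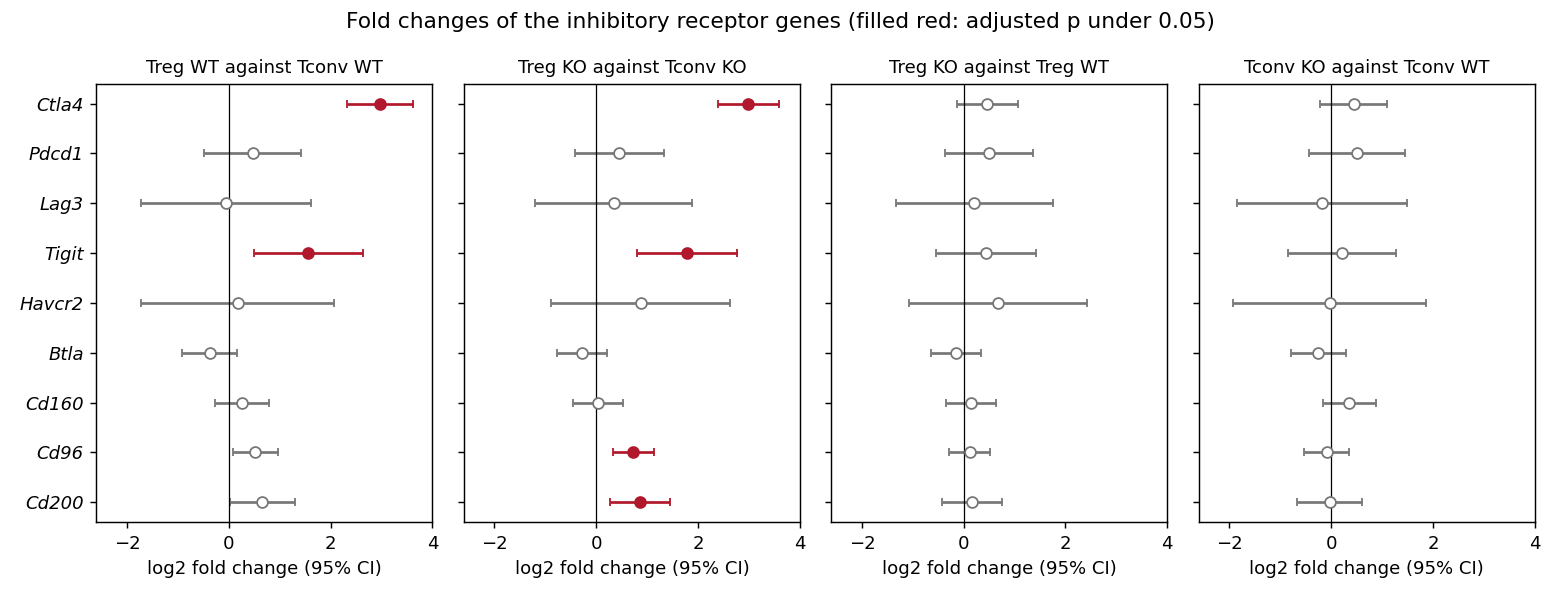
Log2 fold change (horizontal axis) of each receptor gene in 4 comparisons, with 95% confidence interval; filled red points passed an adjusted p of 0.05 in limma. Ctla4 at 2.97 and 2.99 and Tigit at 1.56 and 1.78 stand to the right in both comparisons of cell types, and no gene is filled in either comparison of genotypes.

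Ctla4, the receptor that removes CD80 and CD86, showed the widest gap of the 9 between the cell types. It read 2862, 2870, 4266 and 3034 in Treg KO and 763.9, 423.9, 433.7 and 188.4 in Tconv KO. It read 2137, 2355, 2481 and 2375 in Treg WT and 265.7, 284.6 and 345 in Tconv WT. Neither genotype had any overlap between Treg and Tconv, and the lowest Treg library exceeded the highest Tconv library several-fold. The log2 fold change was 2.99 ± 0.28 (SE; adjusted p = 1.7e-06) in KO, which is 7.94-fold, and 2.97 ± 0.31 (adjusted p = 5.1e-06) in WT, which is 7.85-fold. Both calls held in all alternatives tried, with log2 fold changes between 2.62 and 3.3 in KO when 1 library was left out.

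Pdcd1, which encodes PD-1, read 1300, 797, 926.4 and 645.9 in Treg KO and 1468, 853.5, 692 and 202.9 in Tconv KO, so the Treg KO range lay inside that of Tconv KO. It read 540, 729, 597.3 and 657.8 in Treg WT and 375.1, 517 and 482.4 in Tconv WT. There each Treg library was above each Tconv library, by a margin as small as that between 540 and 517. Neither comparison passed: the log2 fold change was 0.45 ± 0.41 (adjusted p = 0.43) in KO and 0.47 ± 0.44 (adjusted p = 0.54) in WT. Fitted on the 2 WT groups alone, the WT difference passed at the same log2 fold change of 0.47 (adjusted p = 0.0066). Without Tconv KO replicate 4 the KO difference was -0.1.

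Tigit, a receptor for CD155, read 1600, 872.2, 1058 and 545.6 in Treg KO and 798.8, 286, 285.9 and 86.1 in Tconv KO. It read 670.2, 709.7, 830.6 and 610.8 in Treg WT and 225.1, 232.9 and 253.6 in Tconv WT. In WT the groups were far apart and each was narrow, while in KO the highest Tconv library lay above the lowest Treg library. Tigit rose in Treg in both genotypes, by 1.78 ± 0.46 on the log2 scale in KO (3.45-fold, adjusted p = 0.0085) and by 1.56 ± 0.5 in WT (2.95-fold, adjusted p = 0.041). The WT call was near the threshold in the fit shared by all libraries. It ended, with adjusted p between 0.051 and 0.12 and the log2 fold change between 1.48 and 1.63, without any 1 of the 7 WT libraries, Treg KO replicate 2, or Tconv KO replicate 2 or 3. With no filter it had an adjusted p of 0.056, and on the KO groups alone the KO call had one of 0.063. Of the 13 alternatives other than leaving out 1 library, 12 kept the WT call.

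Cd96, the other CD155 receptor of the list, read 1417, 1496, 1534 and 957.5 in Treg KO and 1073, 990.2, 766.9 and 511.3 in Tconv KO. The lowest Treg KO library fell among the upper Tconv KO libraries. It read 1155, 1350, 1189 and 1215 in Treg WT and 867.7, 912.3 and 788.9 in Tconv WT, without overlap. Cd96 rose in Treg in KO by 0.72 ± 0.19 on the log2 scale (1.65-fold, adjusted p = 0.0091). In WT its log2 fold change of 0.52 ± 0.21 did not pass (adjusted p = 0.097). That WT value was under the threshold in DESeq2 (0.0499), on the WT groups alone (5.3e-05), with library weights (0.0034), with adjacent sample numbers as a replicate block (0.034) and without Tconv KO replicate 4 (0.021), and on the KO groups alone the KO call was lost (0.063).

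Btla, an HVEM receptor, ran the other way. It read 900.9, 986.2, 935.1 and 517.5 in Treg KO and 1327, 1154, 1104 and 555.8 in Tconv KO. It read 838.8, 827, 1081 and 882.1 in Treg WT and 1120, 1128 and 1262 in Tconv WT. Each Treg WT library was below each Tconv WT library, and in KO replicate 4 of Tconv fell below 3 of the 4 Treg libraries. Neither difference passed, with -0.28 ± 0.23 on the log2 scale in KO (adjusted p = 0.38) and -0.37 ± 0.25 in WT (adjusted p = 0.36). Without Tconv KO replicate 4 the KO difference was -0.56 and passed (adjusted p = 0.029), and on the WT groups alone the WT difference of -0.37 passed (adjusted p = 0.0048).

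Cd160, the other HVEM receptor, is best known from CD8 T and NK cells and was low here. It read 59.5, 57, 68.9 and 58.8 in Treg KO, 52.1, 53.1, 57 and 56.7 in Treg WT, 87.4, 53.6, 51.3 and 50.6 in Tconv KO, and 27.1, 55.9 and 62.5 in Tconv WT. Apart from 1 low Tconv WT library and 1 high Tconv KO library, the 4 groups lay close together. The differences between Treg and Tconv were 0.04 ± 0.23 in KO (adjusted p = 0.9) and 0.26 ± 0.25 in WT (adjusted p = 0.55), with 95% intervals of -0.45 to 0.53 and -0.27 to 0.79. It shares 68 exon bases with Pdzk1 on the opposite strand, and reads from those bases cannot be told apart because the sources used here do not give the strand setting of the counting. The other 8 genes share no exon base with another gene.

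Lag3, a receptor for MHC class II, did not separate the cell types. It read 1150, 600.5, 624.8 and 117.7 in Treg KO and 1384, 455.8, 467.2 and 66.7 in Tconv KO. It read 401.6, 366.2, 538 and 360.8 in Treg WT and 356.1, 415.3 and 517.5 in Tconv WT. The 2 WT groups covered nearly the same range, and so did the 2 KO groups, over a far wider range. The log2 fold change was 0.34 ± 0.73 in KO (adjusted p = 0.76) and -0.05 ± 0.79 in WT (adjusted p = 0.98), with 95% intervals of -1.21 to 1.89 and -1.72 to 1.62, so a change of several-fold in either direction is within reach of these libraries.

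Havcr2, which encodes TIM-3, was close to the limit of detection. It read 50.8, 10.9, 10.8 and 9.36 in Treg KO and 68.2, 9.12, 1.97 and 2.22 in Tconv KO. It read 10.3, 11, 18 and 3.55 in Treg WT and 9.04, 6.85 and 8.93 in Tconv WT. Outside replicate 1 of both KO groups, with 35 and 39 reads, no library had more than 31 reads for the gene, and the groups overlapped. The log2 fold change was 0.87 ± 0.82 in KO (adjusted p = 0.45) and 0.18 ± 0.89 in WT (adjusted p = 0.93), and values this low are understated on the log2(value + 1) scale. Without Tconv KO replicate 1 the KO difference was 1.85 and passed (adjusted p = 0.029).

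Cd200, the ligand of CD200R, read 367, 411.2, 622.7 and 466.7 in Treg KO and 431.8, 206.2, 345 and 128.9 in Tconv KO, and 1 Tconv KO library reached into the Treg range. It read 407.7, 413.8, 429.3 and 375.9 in Treg WT and 211.5, 283 and 283.8 in Tconv WT, where the groups were apart. Cd200 rose in Treg in KO by 0.86 ± 0.28 on the log2 scale (1.82-fold, adjusted p = 0.027) and did not pass in WT, at 0.66 ± 0.3 (adjusted p = 0.15). The KO call ended without Tconv KO replicate 2 (0.77, adjusted p = 0.075), Treg KO replicate 3 (0.72, 0.077) or Tconv KO replicate 4 (0.55, 0.07), and on the KO groups alone (0.11). The WT difference passed without Tconv KO replicate 4 (adjusted p = 0.041), on the WT groups alone (1.9e-04) and with library weights (0.0042).

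The question the cross was made for is what loss of Hpgd in Foxp3-expressing cells does to them. In Treg KO against Treg WT, none of the 9 receptor genes passed (0 of 9 in limma, 0 with p under 0.05 before adjustment, 0 by edgeR and 0 by DESeq2), in a comparison where 21.5% of all genes tested passed and 36.3% had an unadjusted p under 0.05. Of the 9 fold changes, 8 were above 0, and the median was 0.21 beside 0 over all genes. This median was 0.47 in edgeR, 0.48 in DESeq2, 0.12 with library weights, 0.09 without Treg KO replicate 3, 0.34 without Treg WT replicate 3 and 0.49 without Treg KO replicate 4. Ctla4 and Cd160 had every Treg KO library above every Treg WT library, 2 of 9, where 13.2% of all genes did, though for Cd160 the lowest Treg KO and the highest Treg WT library both round to 57. The difference of Ctla4 was 0.46 ± 0.28 on the log2 scale (1.38-fold, 95% interval -0.14 to 1.06, adjusted p = 0.25), which passed when the 2 Treg groups were fitted alone (adjusted p = 0.038). That of Cd160 was 0.15 ± 0.23 (adjusted p = 0.66), and the sign turned to -0.01 when a trend on GC content was removed.

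For the other 7 genes Treg KO and Treg WT overlapped. The CD155 receptors differed by 0.43 ± 0.46 on the log2 scale for Tigit (adjusted p = 0.52) and by 0.12 ± 0.19 for Cd96 (adjusted p = 0.69). Pdcd1 differed by 0.5 ± 0.41 (95% interval -0.37 to 1.37, adjusted p = 0.4), Cd200 by 0.17 ± 0.28 (adjusted p = 0.69) and Btla by -0.16 ± 0.23 (adjusted p = 0.66). Lag3, at 0.21 ± 0.73 (adjusted p = 0.86), and Havcr2, at 0.67 ± 0.82 (adjusted p = 0.59), had intervals of -1.34 to 1.76 and -1.08 to 2.42. These intervals leave room for sizeable differences in most of the genes. With the KO replicates numbered 4 left out of both cell types, a setting chosen after seeing the data, 1 of 9 passed, Pdcd1 at 0.65 (adjusted p = 0.048). Over all genes, 2666 passed in that setting.

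In Tconv KO against Tconv WT, 0 of 9 genes passed (limma, with 0 below an unadjusted p of 0.05, 0 by edgeR and 0 by DESeq2), where 0.681% of all genes did. None of the 9 was without overlap, where 16.3% of all genes were. The largest differences in size were those of Pdcd1, 0.51 ± 0.44 (adjusted p = 0.66), Ctla4, 0.44 ± 0.31 (adjusted p = 0.58) and Cd160, 0.36 ± 0.25 (adjusted p = 0.57). Btla at -0.25 ± 0.25 (adjusted p = 0.72), Tigit at 0.21 ± 0.5 (0.89), Lag3 at -0.18 ± 0.79 (0.94), Cd96 at -0.09 ± 0.21 (0.89), Cd200 at -0.03 ± 0.3 (0.97) and Havcr2 at -0.03 ± 0.89 (0.99) were no larger than their SE. Without the KO replicates numbered 4, again 1 of 9 passed, Pdcd1 at 1.07 (adjusted p = 0.045). Treg KO and Treg WT are each also set against a Tconv group above, so these comparisons share libraries.

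The KO libraries were spread more widely than the WT libraries, for the receptor genes and over all genes. The SD of log2 values was larger in Treg KO than in Treg WT for 9 of 9 receptor genes and larger in Tconv KO than in Tconv WT for 8 of 9, Cd160 being the exception. Of all genes tested, 82% had the larger SD in Treg KO and 77% in Tconv KO, so these counts lie near the background. The median SD over the 9 genes was 0.42 in Treg KO, 0.18 in Treg WT, 0.83 in Tconv KO and 0.2 in Tconv WT, while over all genes tested it was 0.23, 0.12, 0.19 and 0.11 in the same order of groups. Highest and lowest library differed 20.8-fold for Lag3, 9.27-fold for Tigit, 7.24-fold for Pdcd1 and 4.05-fold for Ctla4 in Tconv KO, and 1.45-fold, 1.13-fold, 1.38-fold and 1.3-fold for the same genes in Tconv WT. In Treg KO the ratio was 9.78 for Lag3, 2.93 for Tigit and 1.49 for Ctla4, against 1.49, 1.36 and 1.16 in Treg WT.

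The spread had the same libraries at its ends for most genes. Tconv KO replicate 1 was the highest of its group for 9 of 9 genes, and replicate 4 the lowest for 8 of 9, with replicate 3 lowest for Havcr2. Tconv KO replicate 4 was also the deepest of its group, with 10.3 M reads against 3.29, 5.03 and 2.95 M in replicates 1 to 3. Relative to the Tconv WT mean, the median of the 9 genes was 1.36 on the log2 scale in replicate 1, 0.21 in replicate 2, 0.16 in replicate 3 and -1.07 in replicate 4, beside medians over all genes between -0.01 and 0.01. In Treg KO, replicate 4 was the lowest for 6 of 9 genes, and replicates 1 and 3 were each the highest for 4. Their medians relative to the Treg WT mean were 0.29, 0.29, 0.56 and -0.01 for replicates 1 to 4, with medians over all genes between 0 and 0.02. The WT groups also shared libraries at their ends. Treg WT replicate 3 was the highest for 7 of 9 genes, Tconv WT replicate 3 the highest for 6 and Tconv WT replicate 1 the lowest for 7. Medians relative to the WT mean ran from -0.07 to 0.09 in Treg WT and from -0.16 to 0.11 in Tconv WT. How often these libraries were at the ends over all genes was not counted. Replicate numbers follow the order of the records. Treg KO and Tconv KO libraries of 1 replicate number also have adjacent sample numbers, and over all genes they deviated from their group means together (r = 0.208 to 0.541), so their spread may not be separate in the 2 cell types. The labels do not say whether they share an animal.

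**Figure D3:**
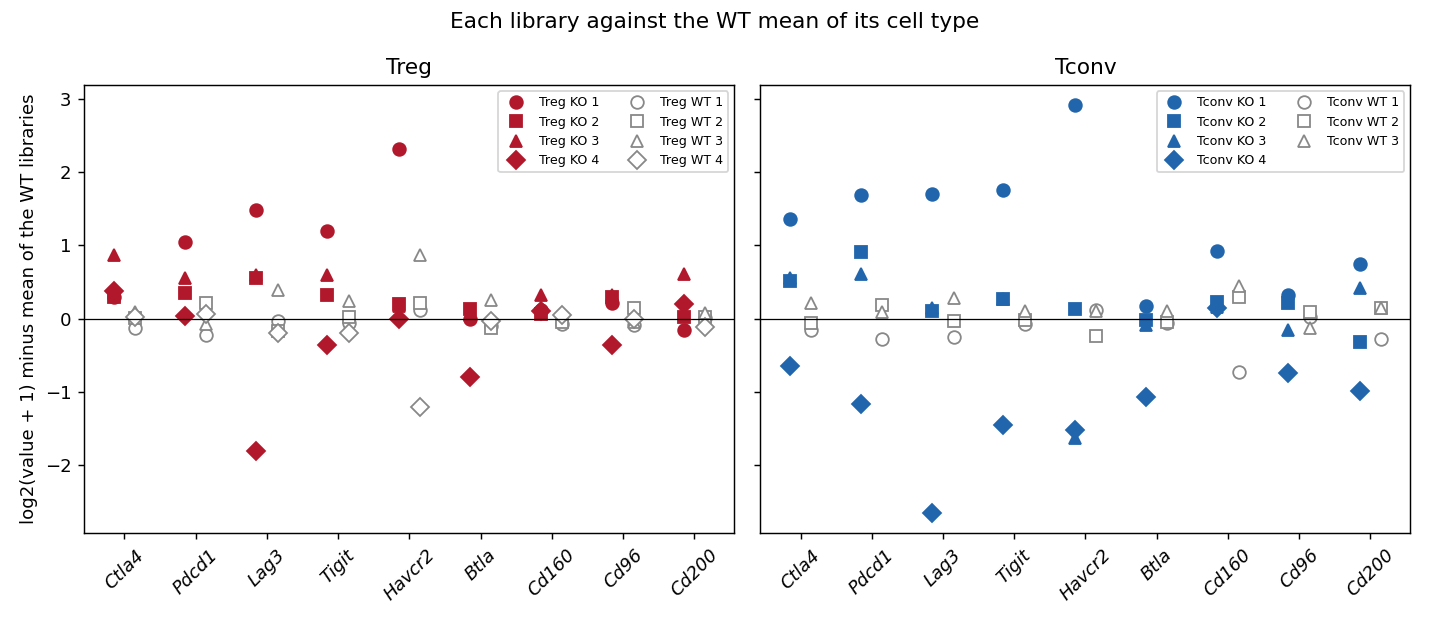
Log2(value + 1) of each receptor gene in each library minus the mean of the WT libraries of the same cell type (vertical axis), Treg left and Tconv right; filled points are KO and open points WT libraries. Tconv KO replicate 1 lies above 0 for all 9 genes and Tconv KO replicate 4 below 0 for 8 of 9.

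Gene lists for the state of the cells moved with the same libraries. In Tconv KO replicates 1 to 4 the summed level of 12 follicular T cell genes, such as Cxcr5, Bcl6 and Il21, was 11404, 7036, 5983 and 3496, against 4745 to 5441 in Tconv WT. The sum of 14 effector Treg genes was 7051, 4272, 3612 and 2385, against 3243 to 3583 in Tconv WT. The sum of 10 naive T cell genes, such as Lef1 and Ccr7, ran in the opposite order, 27664, 35794, 41489 and 43246, against 36636 to 39534 in Tconv WT. Library 1, which had the most receptor RNA, thus had the highest follicular and effector sums and the lowest naive sum, and library 4 the reverse. In Treg KO the follicular sum was 8073, 6258, 7821 and 4687, against 4801 to 5131 in Treg WT, the effector sum 16428, 11933, 11874 and 9007, against 9656 to 10402, and the naive sum 14440, 18249, 19281 and 21302, against 18221 to 22198. Cxcr5, Bcl6 and Il21 reached at most 1245, 475.5 and 562.9 in Tconv KO and 546.9, 295.2 and 33.4 in Treg KO. Most of the follicular sums of 11404 and 8073 thus came from other genes of that list. The part of the listed genes in the receptor levels was not tested.

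Markers of other cells moved with some of these libraries. The 8 CD8 T and NK cell markers, 6 of them tested, summed to 2092, 1275, 873.3 and 774.8 in Tconv KO, against 807.9 to 1003 in Tconv WT, and to 217.1 to 288.7 in Treg KO, against 209.7 to 268.1 in Treg WT. In limma 0 of the 6 passed in Tconv KO against Tconv WT, with 0 below an unadjusted p of 0.05, 0 by edgeR and 0 by DESeq2. Cd8a did not exceed 6.46 in any library and Ncr1 did not exceed 0.556, while Cd8b1, the other CD8 chain, lay between 47.4 and 94.9 in all libraries. Nkg7 reached 914.2 and Eomes 777.9 in Tconv KO, and Prf1 averaged 257.4 ± 30.4 in Tconv KO and 259.3 ± 41.9 in Tconv WT. Of the 6, 1 fell in Treg KO against Treg WT, Prf1, by 0.78 ± 0.23 on the log2 scale (adjusted p = 0.028), a call that ended without any 1 of 5 Treg libraries (up to 0.084). The 8 B cell markers summed to 328.6, 148.1, 124.2 and 64.5 in Tconv KO against 136.5 to 184.2 in Tconv WT, with Ms4a1 at or below 2.22 in all Tconv libraries and Cd22 at 47.2 to 305.9 in Tconv KO and 124.7 to 174.4 in Tconv WT, and to 218.3 to 286.6 in Treg KO against 152.8 to 233.2 in Treg WT. Cd79b averaged 135.2 ± 22.2 in Treg KO and 78.3 ± 4.95 in Treg WT, and 11.5 ± 6.59 in Tconv KO and 4.91 ± 2.8 in Tconv WT. Of the 2 B cell markers tested, 0 passed between the genotypes in limma, with 1 below an unadjusted p of 0.05 in each cell type, and edgeR and DESeq2 each called 1 in Treg and 0 in Tconv. The 8 myeloid markers summed to at most 33 in any group, and the 5 erythroid and platelet markers found in the table to at most 30.9. The 5 Treg markers summed to 7892, 4069, 3442 and 2276 in Tconv KO against 3238 to 3587 in Tconv WT, with Foxp3 at 18.9 to 69.5 against 14.4 to 20.6. Their part in the receptor levels was not tested.

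**Figure D4:**
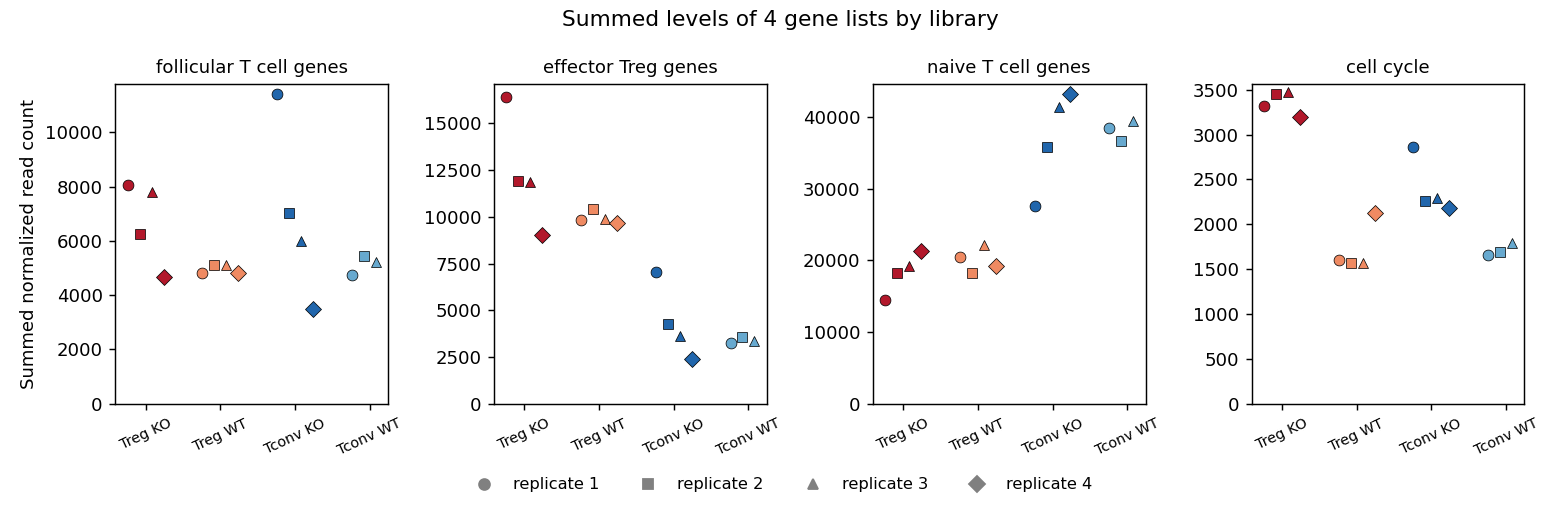
Summed normalized read count (vertical axes, linear) of 4 gene lists in each library, by group. In Tconv KO the follicular sum falls between 3496 and 11404 and the naive sum between 27664 and 43246, both wider than in Tconv WT.

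The partners that the receptors bind were also read in the T cells themselves. Of 14 such genes 11 were tested, with 4 higher and 3 lower in Treg WT against Tconv WT, 4 higher and 1 lower in Treg KO against Tconv KO, 2 higher and 0 lower in Treg KO against Treg WT. Over all genes tested, 10.0% passed as higher and 8.06% as lower in the first comparison, and 15.8% and 15.6% in the second. In Treg KO against Treg WT 21.5% passed in either direction. The same shares apply to the lists that follow. Cd86, a ligand of CTLA-4, stood at a mean of 221 ± 60.3 in Treg KO and 30.5 ± 10.4 in Tconv KO, and 261.6 ± 35.9 in Treg WT and 27.4 ± 4.22 in Tconv WT, a log2 fold change of 2.85 ± 0.25 in KO (adjusted p = 8.5e-07) and 3.21 ± 0.27 in WT (6.3e-07). The PD-1 ligands rose in Treg as well, Pdcd1lg2 (PD-L2) by 2.32 ± 0.31 in KO and 2.18 ± 0.34 in WT, and Cd274 (PD-L1) by 0.91 ± 0.12 and 0.64 ± 0.13. Cd200r1, the receptor for CD200, rose by 0.97 ± 0.14 in KO and 0.79 ± 0.15 in WT. Pvr, which encodes CD155, fell in Treg, by 0.61 ± 0.1 in KO and 0.43 ± 0.11 in WT. Tnfrsf14 (HVEM) and Lgals3 (galectin-3) fell in Treg in WT, by 0.33 ± 0.11 and 1.05 ± 0.32. Between the genotypes, Lgals3 rose in Treg KO by 1.45 ± 0.29 (adjusted p = 0.0042), to 34.6 ± 5.3 against 12.5 ± 4.29 in Treg WT, and Cd200r1 by 0.41 ± 0.14 (adjusted p = 0.047). The Cd200r1 call between genotypes ended without any 1 of 10 of the 15 libraries and in 7 other alternatives (adjusted p up to 0.27). The WT calls of Lgals3 and Tnfrsf14 each ended without any 1 of 5 WT libraries (up to 0.11 and 0.18) and on thinned reads (0.17 and 0.0505), that of Lgals3 also with no filter (0.054), and that of Pvr without Tconv WT replicate 3 and on thinned reads (up to 0.062). Without Tconv WT replicate 3 the WT count was 4 of 11. Fgl1, a ligand of LAG-3, had 1 read in Treg WT and was at 0 in the other groups.

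Among 8 paired activating receptors, 7 of them tested, 1 passed as higher and 3 as lower in Treg WT against Tconv WT, and 3 as higher and 2 as lower in KO. Cd2, an adhesion receptor, rose in Treg by 0.79 ± 0.09 in KO and 0.7 ± 0.09 in WT, and Crtam fell by 1.67 ± 0.45 and 1.89 ± 0.49. Cd226, which shares CD155 with TIGIT and CD96, was the 1 gene of 7 that passed in Treg KO against Treg WT. It rose by 0.52 ± 0.12 on the log2 scale (adjusted p = 0.0066), to 606.1 ± 134.3 in Treg KO against 415.6 ± 39.4 in Treg WT. Cd28, the receptor that CTLA-4 competes with, fell in Treg by 0.32 ± 0.11 in KO and 0.38 ± 0.12 in WT, calls that ended without any 1 of 9 and of 6 libraries (adjusted p up to 0.12 and 0.15). The count of 4 in WT was 2 without Tconv WT replicate 1 or 2, and that of 5 in KO was 3 without Treg KO replicate 1 or Tconv KO replicate 2 or 3.

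Of 11 other inhibitory receptors, 8 were tested. Klrg1, a lectin of differentiated T cells, rose in Treg by 4.87 ± 0.34 in KO and 4.83 ± 0.37 in WT, and Lilrb4 by 4.05 ± 0.53 and 3.28 ± 0.57, while the collagen receptor Lair1 fell by 2.15 ± 0.24 and 2.51 ± 0.26. In all, 4 rose and 3 fell in KO, and 3 rose and 1 fell in WT. Of the 8, 0 passed in limma in Treg KO against Treg WT, with 1 below an unadjusted p of 0.05, 2 by edgeR and 2 by DESeq2, and 1 or 2 passed in limma without Treg KO replicate 2 or 4 or Tconv KO replicate 1.

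Downstream of the receptors, all 12 genes for phosphatases and adaptors were tested. Ptpn6, the phosphatase SHP-1, fell in Treg by 0.49 ± 0.07 in KO and 0.56 ± 0.07 in WT, and Pag1, which anchors the kinase Csk, by 0.76 ± 0.13 and 0.83 ± 0.14. Of the 12, 2 rose and 6 fell in KO, and 1 rose and 3 fell in WT. In Treg KO against Treg WT, 1 rose and 3 fell: Ptpn22, a phosphatase that restrains T cell receptor signalling, rose by 0.79 ± 0.13 (adjusted p = 0.0014), to 2513 ± 387.7 in Treg KO against 1443 ± 141.1 in Treg WT, and Bag6, Csk and Grb2 fell by 0.48 ± 0.12, 0.35 ± 0.11 and 0.21 ± 0.05. None of the 3 passed when a trend on GC content was removed. Bag6 was then at -0.07 (adjusted p = 0.55) and Csk at 0.07 (0.63), while Grb2, at an adjusted p of 0.058, stayed between -0.23 and -0.15 in all alternatives tried. Csk also did not pass without any 1 of 10 libraries. Of 9 genes for the trafficking of CTLA-4, 8 were tested and 2 rose in Treg KO against Treg WT, where 21.5% of all genes passed. They were Lrba, whose product keeps CTLA-4 from degradation, by 0.5 ± 0.11 (adjusted p = 0.0063) and Rab8a by 0.28 ± 0.07 (adjusted p = 0.011). Between the cell types 1 rose in KO, Lrba, and 1 fell in WT, Rab8a.

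All 17 transcription factors linked to these receptor genes were tested. In all, 5 rose and 4 fell in Treg KO against Tconv KO, and 2 rose and 3 fell in Treg WT against Tconv WT. Tcf7, a factor of naive and memory cells, fell in Treg by 1.31 ± 0.09 in KO and 1.3 ± 0.09 in WT, Eomes by 3.62 ± 0.51 and 3.45 ± 0.55, and Prdm1, which encodes Blimp-1, rose by 1.42 ± 0.31 and 1.27 ± 0.34. Of the 17, 1 passed in Treg KO against Treg WT, Bach2, which holds back effector programmes and fell by 0.62 ± 0.19 (adjusted p = 0.033), a call lost on leaving out Treg KO replicate 1, Treg KO replicate 3 or any Treg WT library (up to 0.075). In Tconv KO against Tconv WT, 0 genes of these 6 lists of partners, activating and other inhibitory receptors, phosphatases, trafficking genes and factors passed in limma. At an unadjusted p under 0.05 there were 1 partner gene and 1 phosphatase or adaptor gene, and 0 in the other 4 lists, and edgeR and DESeq2 each called 1 phosphatase or adaptor gene and 0 in the others.

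Over the 15 libraries, the genes most like each receptor in their log2 levels were read as a description, since the libraries share groups and scaling. Ctla4 followed Camk2a (Pearson r = 0.99), Adamts6 (0.989) and Cd83 (0.989). Tigit followed Irf4 (0.986), Serpina3g (0.986) and Itgb8 (0.985), and Pdcd1 followed Tox (0.97), Abhd4 (0.955) and Syt11 (0.95). Lag3 was most like Tshz2 (0.968), Nfia (0.934) and Spock2 (0.922), and Cd96 most like Sh3bp2 (0.964), Art2b (0.963) and Sh3gl3 (0.96). Btla lay nearest to Btbd11 (0.922), Angptl2 (0.897) and Leo1 (0.874), and Cd200 nearest to Zfp831 (0.909), Setbp1 (0.907) and Gnaq (0.899). The 2 genes of low level had looser matches, Havcr2 with Acvr1 (0.875), Dtnbp1 (0.875) and Casp1 (0.87), and Cd160 with Spred3 (0.867), Dis3l (0.802) and Phyh (0.788).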

How the data were processed

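RNA of sorted splenic T cells was sequenced. Per the labels, Qiazol lysates gave the RNA, and 10 ng of it went into TruSeq libraries. The submitters' processing notes name TopHat and mm10; the sources used here give no versions, counting tool or strand setting. Values in the deposited table are a normalized signal, which the authors made by dividing gene counts by a size factor for each library. Dividing by the value of 1 read gave a whole number, to within 0.001, for 100% of values. The limit from a count of 0 covers counting error only, as there are no molecular identifiers.

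Values were analysed as log2(value + 1) for genes with at least 10 in at least 3 libraries. Fold changes are on this scale and understate low genes. All 15 libraries entered 1 limma 3.58.1 fit (R 4.3.3) of 4 group means, with a spread trend on mean level, and 5 two-sided contrasts had Benjamini-Hochberg adjustment over all 11314 genes; under 0.05 passed. Groups come from the sample titles, and replicates were numbered in record order. Alternatives were edgeR 4.0.16 (quasi-likelihood) and DESeq2 1.42.0 on the whole reads, other pseudocount, filters, scaling, subsets, weights, thinned reads, removal of a GC trend, a block, and leaving out each library. The method was tested on simulated data.

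The 9 genes and 16 lists were chosen with earlier results of these data known, and so were the tests; they are no independent support for one another. Named are the 9 genes, of each list at most 4 that passed with the smallest adjusted p per comparison, and the 3 genes most like each receptor; others of a short list were named after their values were seen. Positions and exon lengths (all annotated exons of a gene, merged) came from GENCODE vM21, to which 17340 of 17594 symbols matched, 688 as older symbols. Lilrb4, Pvrl1 and 4632428N05Rik are the table's older symbols for list genes. Plots used matplotlib 3.10.9 (Python 3.11.15).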

Additional observations from a re-analysis of the deposited data

Results flagged for a closer look

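Of 27 sets of 4 libraries, 1 for each receptor gene and group with 4 libraries, 4 held a library far from the other 3. Chance alone gives about 1 in 20 for separate sets. The sets here share libraries, so the count of 4 cannot be judged against that rate. Ctla4 in Treg KO had 4266 in replicate 3, the others lying between 2862 and 3034. Havcr2 in Treg KO had 50.8 in replicate 1 and 9.36 to 10.9 in the others. Havcr2 in Tconv KO had 68.2 in replicate 1 and 1.97 to 9.12 in the others. Cd160 in Tconv KO had 87.4 in replicate 1 and 50.6 to 53.6 in the others. All 4 are KO libraries, and Treg KO replicate 3 has the fewest reads of all, 2.64 M. What sets these libraries apart was not tested.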

How the results depend on the processing

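The calls of Ctla4 between the cell types held in every alternative tried, and 0 of 9 genes passed in the interaction in all of them. Genotype and sex cannot be told apart, KO libraries were mostly shallower, and Havcr2 and Cd160 had few reads; reads thinned to 1 depth changed no call of the 9 genes. With 1 library left out, the count of the 9 that passed was 0 in both comparisons of genotypes, 1 to 4 in Treg WT against Tconv WT and 3 to 5 in Treg KO against Tconv KO. Over all genes it was 1394 to 2741 for Treg KO against Treg WT (2431 in full), 22 to 249 for Tconv KO against Tconv WT (77), 1405 to 2527 for Treg WT against Tconv WT (2046), 2912 to 3893 for Treg KO against Tconv KO (3558) and 3 to 23 for the interaction (17).

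On the compared groups alone the 9 genes gave 1 call in Treg KO against Treg WT, 6 in Treg WT against Tconv WT (5 higher, 1 lower) and 1 in Treg KO against Tconv KO, and all genes gave 32 in Tconv KO against Tconv WT, 3990 in Treg WT against Tconv WT and 2042 in Treg KO against Tconv KO. There the lists of other inhibitory receptors, phosphatases and adaptors, and factors had 8, 9 and 12 calls in WT (4, 4 and 5 in full), and the last pair 4 and 5 in KO (8 and 9). Library weights gave 4 of 9 in Treg WT against Tconv WT, and 307, 4330 and 56 genes in Tconv KO against Tconv WT, Treg WT against Tconv WT and the interaction. On the recovered reads edgeR called 2444, 93, 2326, 3462 and 17 genes in the 5 comparisons in the order above. DESeq2 gave 236 genes in Tconv KO against Tconv WT and 88 in the interaction, no filter left 1 of 9 in Treg WT against Tconv WT, and removal of a GC trend left 1504 genes in Treg KO against Treg WT. Without the KO replicates numbered 4, chosen after seeing the data, the 9 genes gave 1 call in each comparison of genotypes and 5 in Treg WT against Tconv WT (4 higher and Btla lower), with 147 genes in Tconv KO against Tconv WT; in Treg KO against Tconv KO 3 were higher and Btla lower.

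Adjacent sample numbers, 1 Treg and 1 Tconv of a genotype, deviated together at r = 0.484, 0.334, 0.208 and 0.541 in KO and 0.142, 0.21 and 0.016 in WT; the labels do not say that they share an animal. As a replicate block they gave 44 genes in the interaction and Cd96 passed in Treg WT against Tconv WT (adjusted p = 0.034).

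The signs that turned were all of values that did not pass. In Treg KO against Treg WT, removal of a GC trend gave -0.01 for Cd160, -0.04 for Cd96 and -0.004 for Cd200. Lag3 was -0.22 without the KO replicates numbered 1 and Btla 0.06 without those numbered 4. In Tconv KO against Tconv WT, edgeR gave 0.42 for Lag3, 1.12 for Havcr2 and 0.03 for Cd200, and DESeq2 0.47, 1.27 and 0.08. Havcr2 was 0.23 with a pseudocount of 8 and 0.07 with the block, Cd200 0.02 on thinned reads, Lag3 0.02 without a GC trend and Tigit -0.3 without the KO replicates numbered 1. Without those numbered 4, Lag3 was 0.65, Havcr2 0.47, Btla 0.03, Cd96 0.13 and Cd200 0.28. In Treg KO against Tconv KO, Cd160 was -0.1 without a GC trend and -0.01 without the replicates numbered 4. With 1 library left out, the log2 fold changes ranged from -0.22 to 0.88 for Lag3 and -0.25 to 0.06 for Btla in Treg KO against Treg WT. In Tconv KO against Tconv WT they ranged from -0.8 to 0.65 for Lag3, -0.3 to 0.76 for Tigit, -1 to 0.51 for Havcr2, -0.39 to 0.03 for Btla, -0.002 to 0.59 for Cd160, -0.23 to 0.13 for Cd96 and -0.29 to 0.28 for Cd200. In Treg WT against Tconv WT they were -0.18 to 0.1 for Lag3, -0.11 to 0.57 for Havcr2 and -0.11 to 0.48 for Cd160, and in Treg KO against Tconv KO -0.1 to 0.85 for Pdcd1, -0.49 to 1.01 for Lag3 and -0.03 to 0.23 for Cd160. A mean of at least 50 left Havcr2 untested. The causes were not tested.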

Other observations

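Lists for the state of the cells, read beside the receptors, differed mainly between the cell types, with fewer calls between the genotypes, except the cell cycle list. That list had more calls between the genotypes. Between the cell types it had 2 higher and 1 lower in WT, and 4 higher and 0 lower in KO. Of 14 effector Treg genes, 11 rose in Treg KO against Tconv KO and 10 in Treg WT against Tconv WT, with none lower, and of 10 naive T cell genes 8 fell in Treg in each genotype, among them Igfbp4, with log2 fold changes of -3.07 ± 0.32 in KO and -2.05 ± 0.35 in WT, and Lef1, with -1.68 ± 0.19 and -1.36 ± 0.2. The count of 8 in WT was 5 without Tconv WT replicate 1. Between the genotypes, 2 of the 10 fell in Treg KO, Igfbp4 with a log2 fold change of -1.34 ± 0.32 and Klf2 with -0.87 ± 0.15. Klf2 did not pass when a trend on GC content was removed (adjusted p = 0.11), and stayed between -1.01 and -0.37 in all alternatives tried. Il7r rose by 0.64 ± 0.21, a call that ended without any 1 of 9 libraries. The count of 3 was 5 without Tconv KO replicate 1. Of 12 follicular T cell genes, Il21, Pou2af1 and Ascl2 fell in Treg in both genotypes, though Ascl2 did not pass without any 1 of 2 libraries in KO and of 5 in WT, Il21 with -3.96 ± 0.68 in KO and -5.73 ± 0.73 in WT. Il21 rose in Treg KO against Treg WT by 1.98 ± 0.68 (adjusted p = 0.049), a call that ended without any 1 of 12 of the 15 libraries, and 4 of the 12 genes passed without Treg KO replicate 4. The cell cycle list had 12 of 15 higher and 0 lower in Treg KO against Treg WT, and 5 higher and 0 lower in Tconv KO against Tconv WT; their sum was 3194 to 3473 in Treg KO and 1567 to 2129 in Treg WT, and 2184 to 2858 in Tconv KO and 1656 to 1789 in Tconv WT. With a mean of at least 50 required, Ccna2, Ccnb1, Ccnb2, Cdk1, Birc5, Bub1 and Aurkb were untested. The cell cycle counts were then 5 and 2, every earlier call among the genes still tested. Without Tconv WT replicate 1 or 2 the count in Tconv was 1. On reads thinned to 1 depth, Ccna2, Ccnb2 and Birc5 did not pass in Tconv (adjusted p = 0.37, 0.095 and 0.12). Ccnb1, Cdk1 and Bub1 did not pass there in Treg (0.081, 0.059 and 0.055). With the Tconv groups fitted alone, Ccna2 and Rrm2 did not pass (0.068 and 0.069). All 5 Treg markers rose in Treg in both genotypes, and 0 passed between the genotypes in limma (0 at an unadjusted p under 0.05 in Treg and 1 in Tconv, 0 in edgeR in both, and 0 in Treg and 1 in Tconv in DESeq2). Of 4 CD4 T cell markers, 2 rose in Treg KO against Treg WT. Of 6 tested CD8 T and NK markers, 5 fell in Treg in each genotype.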
